A study of Mus musculus with 8 samples.

Results

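Cacna1c and Cacna2d1 encode subunits of voltage-gated calcium channels, and both were examined here for RNA fragments crosslinked to Ptbp2 in the embryonic mouse cortex. Members were all sequenced fragments (tags) whose midpoint lay on the gene's strand in 1 of 2 regions of the mm9 genome. These were chr6:118537000-119147000 on the minus strand for Cacna1c (gene ID 12288, 610 kb) and chr5:15440000-15881000 on the plus strand for Cacna2d1 (gene ID 12293, 441 kb). Cacna1c held 2678 sense tags and Cacna2d1 1399, together 4077 of 3098854 mapped tags. The tags came from the cortex of wild-type CD1 embryos at embryonic day 18.5, with 4 libraries of RNA crosslinked to Ptbp2 from each of 2 brains. Both brains had the same genotype, age and antibody target, and no treatment was named. The titles also carry a letter, a or b, whose meaning is not given. The 4 libraries of a brain share 1 animal, so the tests below measure the spread between libraries, which may be technical. Input RNA, another antibody or another genotype was not analysed here, so a tag count carries both crosslinking and transcript abundance. In this bulk tissue, fewer cells of a type and less RNA per cell cannot be told apart.

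Cacna1c encodes the pore-forming subunit of the L-type calcium channel Cav1.2, which opens on depolarisation and links neuronal activity to calcium-dependent transcription. Cacna2d1 encodes the auxiliary subunit alpha2delta-1, a largely extracellular protein that promotes the delivery of channels to the cell surface and binds the drug gabapentin. Ptbp2 is the neuronal polypyrimidine tract-binding protein. It contacts pyrimidine-rich RNA, often in introns beside alternative exons, and commonly represses their inclusion. Cacna1c transcripts carry several alternatively spliced exons, and polypyrimidine tract-binding proteins are known to control a mutually exclusive pair of them. The regions were taken whole, and exons, introns and untranslated regions within them were not assigned, because no annotation or genome of the mm9 build was used. Binding-site sequences, other calcium channel genes and the markers of cortical cell types were not analysed here for the same reason. In the RefSeq table of another assembly, GRCm38.p6, which was used for names alone, 7 genes overlapped Cacna1c and 1 overlapped Cacna2d1. Of these, 0 were listed on the member's own strand, while the strand of 3 of the 7 was not listed. Dcp1b, an mRNA decapping factor gene on the opposite strand, was the one protein-coding gene among them.

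The libraries held between 228424 and 545387 tags, with 1932995 in brain 1 and 1165859 in brain 2. Library 1 of brain 1 was the deepest and library 4 of brain 2 the shallowest. In the latter, 18.6% of tags repeated the start and end of another tag of the library, against 8.09 to 12.8% in the other libraries.

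The pore-forming subunit gene carried more Ptbp2 tags than the auxiliary subunit gene in every library, also per unit of length. Scaled to the total tags of each library (CPM), Cacna1c held 1018, 947, 870 and 818 CPM in libraries 1 to 4 of brain 1. In libraries 1 to 4 of brain 2 it held 740, 729, 824 and 814 CPM. The brains overlapped, because library 4 of brain 1 lay below library 3 of brain 2. Cacna2d1 held 508, 504, 505 and 447 CPM in brain 1, and 363, 374, 425 and 368 CPM in brain 2. Here all 4 libraries of brain 1 lay above all 4 of brain 2. How many other windows separate the brains in this way was not counted, so this cannot be called particular to Cacna2d1. Per kb of region, the level of Cacna1c was 1.497 ± 0.144 CPM per kb for brain 1 and 1.27 ± 0.0807 for brain 2 (SD, n = 4 libraries each). That of Cacna2d1 was 1.11 ± 0.0663 and 0.867 ± 0.0658 CPM per kb (SD, n = 4 each). The ratio of Cacna1c to Cacna2d1 per kb ran from 1.25 to 1.60 over the 8 libraries and was above 1 in each.

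**Figure D1:**
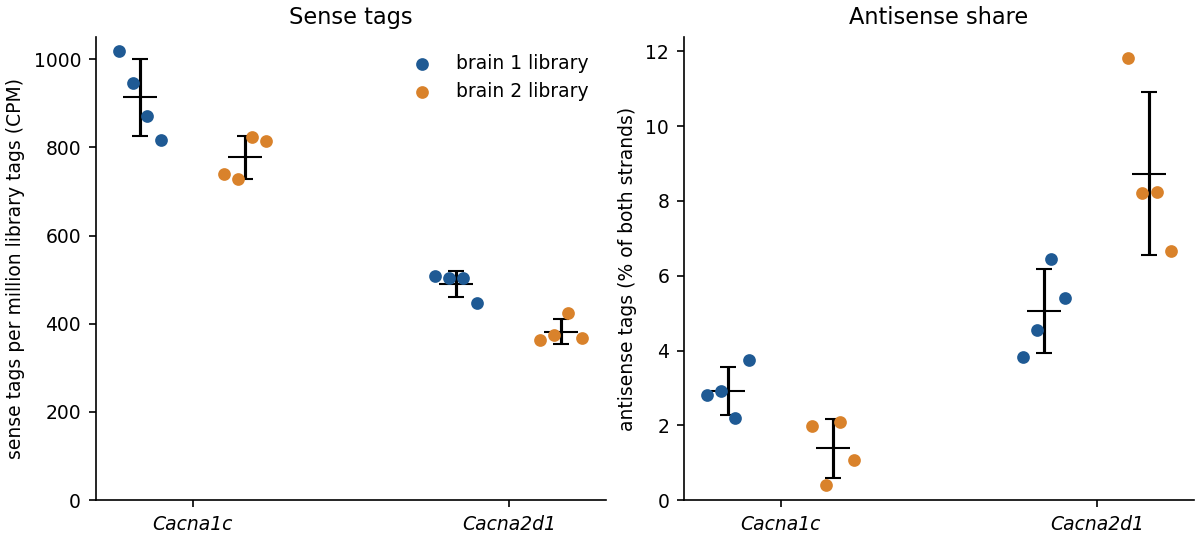
Left, sense tags of each gene in CPM, and right, the antisense share in percent of the tags on both strands, with 1 point per library (brain 1 blue, brain 2 orange) and black bars for mean ± SD of 4 libraries. Cacna2d1 lies between 447 and 508 CPM in brain 1 and between 363 and 425 in brain 2, without overlap. The antisense shares of the brains separate in opposite directions for the 2 genes. How many other windows separate likewise was not counted.

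Neither gene passed the test between brains. Both regions were fitted together with strand-specific windows of 500 kb with limma voom, which models tag counts of unequal depth. In brain 2 against brain 1 the log2 change was -0.29 ± 0.13 for Cacna1c (SE, limma adjusted p = 0.341) and -0.42 ± 0.14 for Cacna2d1 (SE, limma adjusted p = 0.155). Of the 9671 features of this fit, 54 passed an adjusted p of 0.05, which is 0.558%, and the members' count was 0 of 2. Leaving out any 1 library moved the 54 calls by over 1.5 times, to between 0 and 245. Unadjusted, both members had p under 0.05 (limma, 0.0242 and 0.00262), as had 1110 of the 9671 features. The change of Cacna2d1 passed narrowly without library 4 of brain 2 (-0.42, limma adjusted p = 0.0489), in a fit with 245 calls. By the exact permutation test on unscaled CPM, the difference had p = 0.0571 for Cacna1c and p = 0.0286 for Cacna2d1 (two-sided, n = 4 each). The value 0.0286 is the smallest that 4 against 4 libraries allow, and after Benjamini-Hochberg adjustment over 11 such tests the exact p-values were 0.157 and 0.105. Libraries that share a brain and a letter were mostly closer to each other than to the rest. Over 500 kb windows their chi-square per degree of freedom was 1.05 and 1.11 in brain 1 and 1.05 and 1.32 in brain 2, against 1.17 to 1.32 and 1.21 to 1.68 across letters. The 4 libraries of a brain are therefore not fully separate units, and the exact p-values treat them as such. With the libraries of a letter summed, the limma adjusted p was 0.765 for Cacna1c and 0.612 for Cacna2d1. The ratio of the 2 genes, 1.86 ± 0.116 in brain 1 and 2.04 ± 0.127 in brain 2 (SD, n = 4), gave an exact permutation p of 0.0857 (adjusted 0.189).

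Both regions were among the fuller parts of the genome for Ptbp2 tags. Over all libraries Cacna1c held 4.39 tags per kb, and 74 of 10212 other strand-specific 500 kb windows with 20 or more tags (0.725%) were denser. Cacna2d1 held 3.17 tags per kb, with 148 denser windows (1.45%). The median window held 0.406 tags per kb. The 2 regions were each set around 1 gene, whereas the windows are fixed tiles drawn without regard to genes. These ranks, and those by clusters below, therefore compare unlike units. Tags of one strand that overlapped by 1 nt or more were joined into clusters, whose height is the peak depth of tags. At a height of at least 10, Cacna1c had 29 clusters and Cacna2d1 8, of 22803 in all. These counts are 4.75 and 1.81 clusters per 100 kb, exceeded by 103 (1.01%) and 355 (3.48%) of the 10212 windows. Among the 354 of those windows with 1000 or more tags, closer to the genes in depth, the median was 3.0 clusters per 100 kb. There 29.1% exceeded Cacna1c and 81.6% exceeded Cacna2d1. Without library 1 of brain 1 Cacna1c had 18 clusters, and without library 2 of brain 1 it had 19, at the same height with fewer tags pooled.

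A larger share of tags lay in such clusters in Cacna1c than in Cacna2d1, in every library except library 2 of brain 2. This order depends on the height asked for: at a height of 20 the pooled shares were 7.13% in Cacna1c and 8.65% in Cacna2d1, and at 5 they were 32.8 and 31.5%. At the height of 10 used elsewhere the pooled shares were as follows. In Cacna1c 506 of 2678 tags did, 18.9% (95% Clopper-Pearson interval 17.4 to 20.4%), and in Cacna2d1 194 of 1399, 13.9% (12.1 to 15.8%). These intervals cover counting error only, and the difference between the genes was not tested over libraries. Among the same 354 windows the median share was 21.9%. Of those windows, 61.9% had a larger share than Cacna1c and 82.2% a larger share than Cacna2d1. By density, 20.9 and 41.8% of the same windows lay above the 2 genes, so both ranked lower by clustering than by density. Library by library the share in Cacna1c ran from 15.4 to 25.8%, the highest in library 4 of brain 2. In Cacna2d1 it ran from 10.7 to 17.9%, with the lowest value in that same library. Neither share differed between brains beyond the spread of libraries (exact permutation p = 0.600 and 0.971, n = 4 each). With each position counted once per library, the pooled shares were 12.2 and 8.93%. Tags that overlapped no other tag made up 27.9% in Cacna1c and 28.4% in Cacna2d1, against 38.2% of all tags. Among the same 354 windows the median of this share was 25.7%, below both genes. There 35.9% of windows had a larger share than Cacna1c and 33.6% a larger share than Cacna2d1. The full length of 30 nt was reached by 52.7 and 52.6% of the tags of the genes and by 43.1% of all tags.

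**Figure D2:**
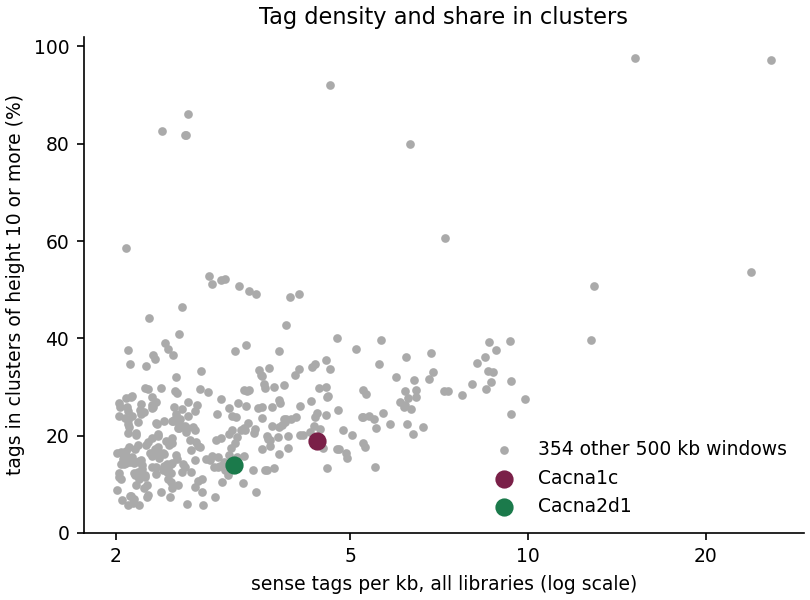
Each point is a strand-specific region, with pooled sense tags per kb on a log axis against the percent of its tags in clusters of height 10 or more. The 354 other 500 kb windows with 1000 or more tags are grey. Cacna1c (4.39 tags per kb, 18.9%) lies below their median share of 21.9% but between their quartiles (15.5 and 29.1%). Cacna2d1 (3.17, 13.9%) lies below the lower quartile.

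Along Cacna1c the tags were concentrated in one stretch and scarce at the 5′ edge. The region was split into 10 equal segments numbered from that edge. Segment 1 held 18 tags (0.672%), segment 2 5.08% and segment 3 9.19%. Segment 4, from 183 to 244 kb, held 769 tags (28.7%), and segment 5 16.2%. Each segment after these held between 6.12 and 10.04%. The share of segment 4 was 28.3 ± 1.24% for brain 1 and 29.3 ± 3.06% for brain 2 (SD, n = 4). It lay between 25.3 and 31.7% in every library. The concentration was not made of tall clusters alone, since 23.3% of the tags outside clusters also lay there. The scarcity at the 5′ edge was seen in both brains. In the first 80 kb there were 29 tags, with 1 to 7 per library, against 232 in the next 80 kb and 857 in the 80 kb after that, a division chosen after the profile was seen.

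Along Cacna2d1 the tags spread over both ends with a thinner middle. Split in the same way, segment 3 from the 5′ edge held 230 tags (16.4%) and segment 8 held 235 (16.8%). The segments between them each held between 3.65 and 7.01%. Segment 7, just before the fullest, was the thinnest with 51 tags. The share of segment 8 was 15.9 ± 2.33% for brain 1 and 18.6 ± 4.01% for brain 2 (SD, n = 4). In contrast to Cacna1c, the first 80 kb held 280 tags and the next 80 kb 315.

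In strand-specific windows of 10 kb, Cacna1c covered 62 windows, of which 41 held 20 or more tags and 0 were empty. The 13 fullest held 50% of its tags. Cacna2d1 covered 46 windows, 29 with 20 or more tags and 1 empty, and the 11 fullest held 50% of its tags. The profiles of the brains resembled each other. Over the 62 windows of Cacna1c the CPM of brain 1 and brain 2 had a Pearson correlation of 0.946 and a Spearman correlation of 0.928. Over the 46 windows of Cacna2d1 they were 0.897 and 0.742. These windows are neighbours on 1 transcript and share mappability, so the correlations are descriptions.

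**Figure D3:**
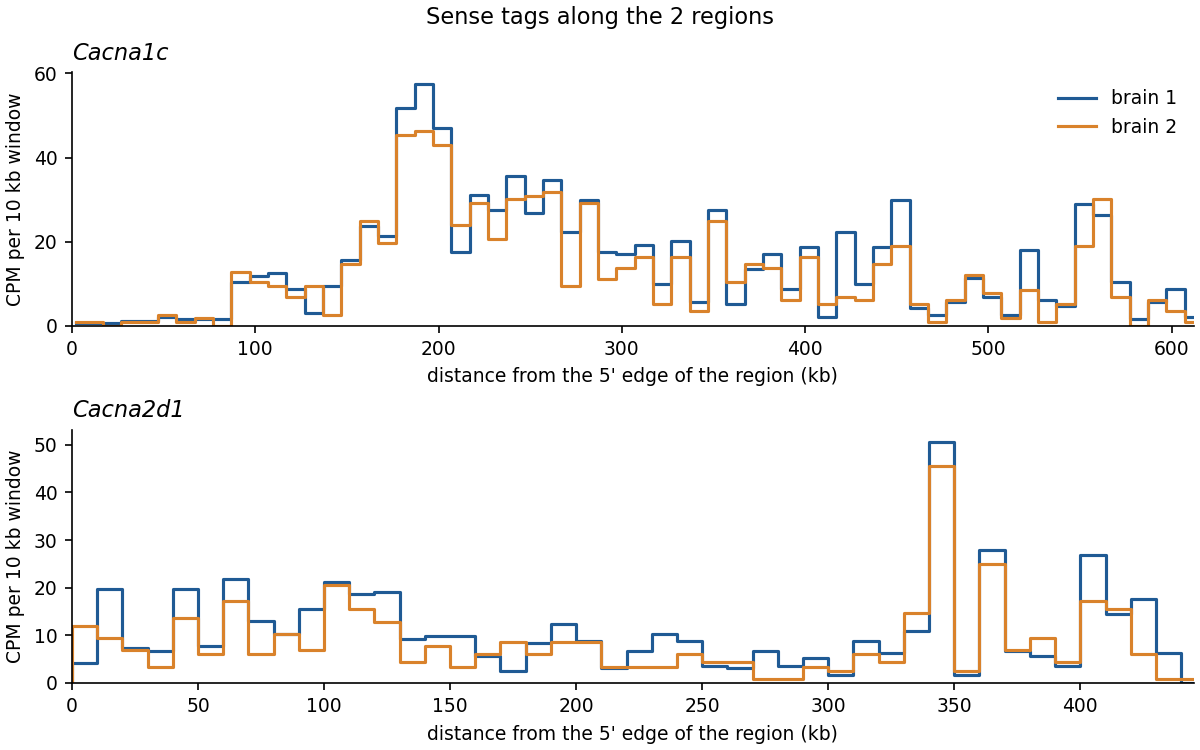
Sense tags in CPM per 10 kb window, with tags of 4 libraries pooled for each brain (brain 1 blue, brain 2 orange), against the distance in kb from the 5′ edge of the region. Windows at the edges lie partly outside the regions. Cacna1c is nearly empty over its first 80 kb and highest around 192 kb, while Cacna2d1 has its highest window at 345 kb.

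The 3 fullest windows of Cacna1c were adjacent. The window chr6:118950001-118960000 held 36, 28, 25 and 22 tags in libraries 1 to 4 of brain 1 and 10, 16, 14 and 14 in those of brain 2. Scaled to depth this is 57.1 ± 8.32 and 47.1 ± 10.6 CPM (SD, n = 4), a difference within the spread of the libraries. Its neighbours chr6:118960001-118970000 and chr6:118940001-118950000 held 153 and 141 tags, of which 54.2 and 53.2% were in clusters of height 10 or more. In the fullest window itself, with 165 tags, that share was 29.1%. Of Cacna2d1, the window chr5:15780001-15790000 stood out with 151 tags, 48.3% of them in 2 clusters. It held 21, 30, 25 and 22 tags in brain 1 and 16, 14, 17 and 6 in brain 2, or 51.3 ± 11.5 and 44.6 ± 14.1 CPM (SD, n = 4). The next fullest, chr5:15800001-15810000 and chr5:15840001-15850000, held 83 and 72 tags, the last with 0 in clusters.

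Between brains, 12 windows of the members held enough tags to be tested among 3757 of the genome, 11 of Cacna1c and 1 of Cacna2d1. In the limma voom fit 0 of these 12 passed an adjusted p of 0.05, and 0 had an unadjusted p under 0.05. Over all windows 45 passed, which is 1.2%, with 17 and 28 calls when library 1 or 2 of brain 1 was left out. The log2 changes of the 12 ran from -0.39 to 0.34, and 10 of them were above 0. That direction depends on the scaling, since with total tags 10 of the 12 were below 0 and the median of all windows moved from -0.01 to -0.21. The median of the 12 moved with it, from 0.05 to -0.15. Without the count filter 70 windows of the members could be tested, and 0 passed, with 2 at an unadjusted limma p under 0.05. Of the 70, 53 were below 0 and 17 above, with a median of -0.25 against -0.07 over all windows. The scaling is computed on the windows kept, so this setting changes the scaling as well as the windows tested. The fullest window of Cacna1c moved from -0.10 to -0.25 and that of Cacna2d1 from 0.004 to -0.14. A dependence on the filter apart from the scaling was not tested.

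The tallest clusters of Cacna1c lay within the fullest stretch, apart from one. The cluster chr6:118961489-118961600, 112 nt wide and 185 kb from the 5′ edge, had a height of 38. It held 8, 5, 5 and 7 tags in libraries 1 to 4 of brain 1 and 4, 5, 2 and 8 in brain 2, so every library contributed. Its 44 tags covered 28 distinct positions, the fullest with 4 tags. In the cluster chr6:118941001-118941043 (height 29), 16 of the 29 tags shared one start and end, and library 1 of brain 2 held 0. Clusters with most of their tags at a shared start and end were common over the genome, at 33.4% of all clusters of this height. In Cacna1c they were 6 of 29 (20.7%) and in Cacna2d1 4 of 8. The cluster chr6:118943404-118943481 (height 28) held 7, 2, 6 and 3 tags in brain 1 and 3, 4, 4 and 4 in brain 2. It was spread over 21 positions. The next 3 reached a height of 21. These were chr6:118953294-118953428 with 38 tags, chr6:118963099-118963174 with 25 and chr6:118695211-118695271 with 22. The last lay alone at 452 kb from the 5′ edge, 28011 nt from the nearest other cluster.

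The tallest cluster of Cacna2d1 matched that of Cacna1c in height and was wider. At chr5:15783968-15784163, 196 nt wide and 344 kb from the 5′ edge, it reached a height of 38 with 57 tags. It held 6, 12, 14 and 6 tags in brain 1 and 4, 5, 7 and 3 in brain 2, and so was present in every library. A second cluster began 19 nt after its end, chr5:15784182-15784244, with 16 tags and a height of 15. The cluster chr5:15559210-15559254 (height 28) was also present in every library, but 57.1% of its 28 tags shared one position. The cluster chr5:15506387-15506518 (height 21) held 11, 5, 5 and 7 tags in brain 1 and 5, 3, 0 and 0 in brain 2. Libraries 3 and 4 of brain 2 were therefore empty at this cluster, while library 1 of brain 2 matched libraries 2 and 3 of brain 1 in tags. The clusters chr5:15535838-15535870 and chr5:15670439-15670471, each 33 nt wide with 15 tags, were narrow stacks in which 73.3 and 53.3% of the tags shared one position. The second of them held 13 tags of brain 1 and 2 of brain 2, and its nearest neighbour was 111185 nt away.

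**Figure D4:**
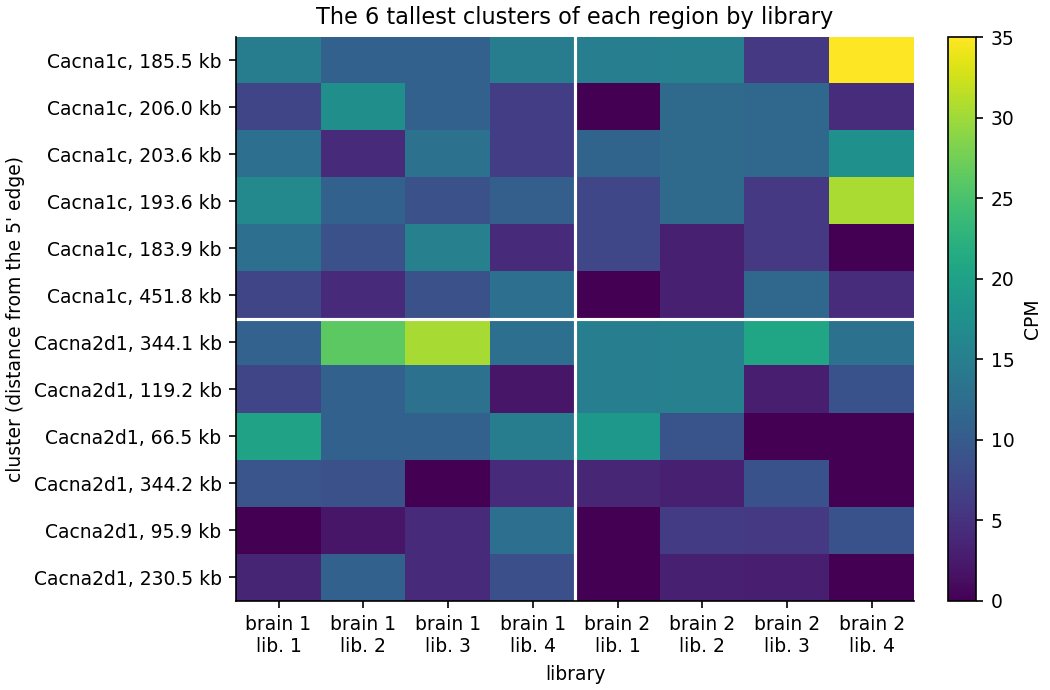
CPM of the 6 tallest clusters of each gene (rows, named by distance from the 5′ edge) in the 8 libraries (columns), on a linear colour scale from 0. The cluster of Cacna1c at 185.5 kb and that of Cacna2d1 at 344.1 kb have tags in every library, and the brightest cell is the former in library 4 of brain 2.

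All 37 clusters held tags of both brains, as did 22597 of the 22803 clusters of this height over the genome. All 8 libraries were present in 5 of the 29 clusters of Cacna1c (17.2%) and in 2 of the 8 of Cacna2d1, against 23.8% of all clusters of this height. Since the clusters were defined on pooled tags, they were also called in each brain alone, at a height of 5 or more. In Cacna1c brain 1 then gave 56 clusters, of which 28.6% overlapped one of brain 2, and brain 2 gave 21, of which 71.4% overlapped one of brain 1. In Cacna2d1 6 of 20 clusters of brain 1 and 7 of 10 clusters of brain 2 were shared in this way. Over the genome the shares were 33.0% of 42612 and 66.7% of 21063. The brains differ in depth, which alone changes how many clusters reach a height.

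No cluster of either gene held enough tags per library to enter the limma voom fit of clusters between brains, where 6 of 466 passed (1.29%). Those 6 calls became 1 and 3 without library 1 or 2 of brain 1. With the filter relaxed to 20 tags over all libraries, 10 of the 37 were tested and 0 passed, while 5 of 6566 did over the genome (0.0761%). Unadjusted, 0 of the 10 had p under 0.05. Their log2 changes ran from -1.77 for the Cacna2d1 cluster at chr5:15506387-15506518 (limma adjusted p = 0.659) to 0.46 for the Cacna1c cluster at chr6:118943404-118943481. The Cacna2d1 cluster at chr5:15670439-15670471, which had too few tags for that fit, gave an exact permutation p of 0.0286 on CPM, unadjusted (n = 4 each). This was the lowest exact p among the 37 clusters and is named for that reason, so it carries no weight alone.

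The clusters of Cacna1c lay closer together than those of Cacna2d1, a description that was not tested. In Cacna1c 11 of 29 clusters (37.9%) lay within 200 nt of another, against 11.4% of all clusters. They made up 6 neighbouring pairs, with 74 to 207 nt between their middles. Of these, 2 pairs are named, chosen after their values were seen. The pair chr6:118924613-118924662 and chr6:118924813-118924858 was even in height, at 17 and 19. Another, chr6:118860225-118860270 and chr6:118860275-118860367, was separated by 5 nt, and a further cluster followed after 136 nt. When clusters of a strand were linked over gaps of up to 20 kb, 15 clusters of Cacna1c formed 1 group (51.7%). That group spanned 80.3 kb, from chr6:118882882-118963174, and held 304 tags, while 16.5% of all clusters lay in groups of 10 or more. In Cacna2d1 0 clusters lay in such a group, and the one neighbouring pair was that at 344 kb. The median distance to the nearest cluster was 923 nt in Cacna1c, 23340 nt in Cacna2d1 and 17156 nt over all clusters. These comparisons are with clusters of any surroundings. Cacna1c had 4.75 clusters per 100 kb against a median of 0.2 over the windows with 20 or more tags. Spacing was not set against windows of like cluster density, so it cannot be told apart from density here. Widths had a median of 50 nt in Cacna1c and 57.5 nt in Cacna2d1, against 42 nt over all clusters. A width of 100 nt or more was reached by 3 clusters of each gene (10.3 and 37.5%), against 2.98% of all clusters.

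**Figure D5:**
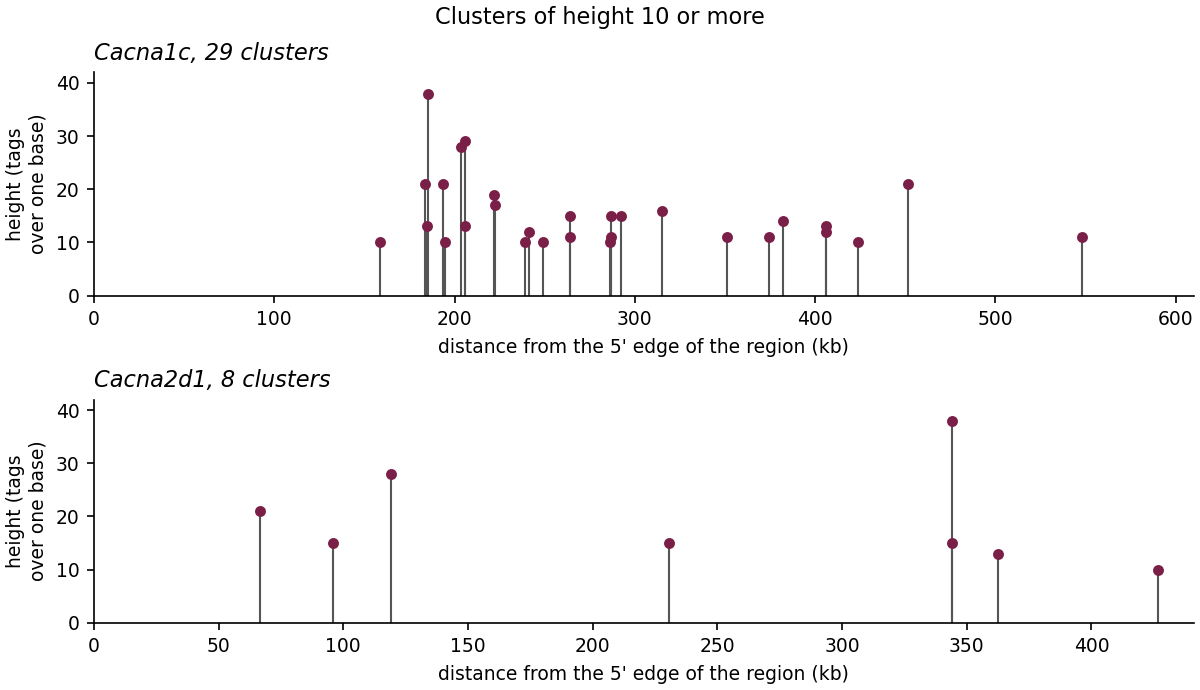
Each vertical line is a cluster of height 10 or more, placed by its distance in kb from the 5′ edge of the region, with its height in tags over one base. Of the 29 clusters of Cacna1c, 15 form 1 group between 184 and 264 kb, and the 8 of Cacna2d1 are far apart except for a pair at 344 kb.

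Few tags lay on the opposite strand. Cacna1c had 66 antisense tags, 2.41% of both strands (95% Clopper-Pearson interval 1.86 to 3.05%). Cacna2d1 had 93, or 6.23% (5.06 to 7.58%). Among the 354 full windows the median share was 6.98%, and 91.5% had a larger share than Cacna1c. Antisense clusters of height 10 or more numbered 0 in each gene. In Cacna1c the share was 2.80, 2.91, 2.20 and 3.76% in brain 1 and 1.98, 0.415, 2.09 and 1.06% in brain 2. In Cacna2d1 it was 3.82, 4.55, 6.45 and 5.41% in brain 1 and 11.8, 8.21, 8.23 and 6.67% in brain 2. The brains did not overlap for either gene, but the direction was opposite, brain 1 being above brain 2 in Cacna1c and below it in Cacna2d1. How many other windows separate by antisense share was not counted, so this cannot be called particular to the genes. Each gave an exact permutation p of 0.0286, the smallest possible, and an adjusted value of 0.105 over the 11 tests. The counts were small, with 53 and 13 antisense tags in brain 1 and brain 2 for Cacna1c, and 50 and 43 for Cacna2d1. Scaled to depth, antisense tags in Cacna2d1 were 26.1 ± 6.21 CPM in brain 1 and 36.6 ± 9.38 CPM in brain 2 (SD, n = 4). In Cacna1c they were 27.3 ± 5.37 and 11.1 ± 6.52 CPM (SD, n = 4). By this measure the brains overlapped in Cacna2d1 but not in Cacna1c. The share in Cacna2d1 also carries its lower sense tags in brain 2. Whether tags of the opposite-strand genes named above contribute was not tested.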

How the data were processed

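HITS-CLIP tags of 8 libraries, 4 from each of 2 brains, were analysed from 1 deposited list with 1 row per mapped tag. Tags were 27 to 30 nt long, and the code that opens each tag name matched 1 sample title, leaving 0 tags without a library. The deposited score column was 0 in every row and was not used. The submitters' processing notes name Bowtie (version not stated) and list 2 builds, mm8 and mm9, without their roles. Positions are taken as mm9 and counted from 1. The sources used here do not give whether repeated reads were collapsed or multiply mapping reads kept. Reads opened with 4 degenerate bases, per the labels' protocols.

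Tags were counted by midpoint in strand-specific windows of 10 and 500 kb and in clusters of height 10 or more. The test was limma 3.58.1 (voom, R 4.3.3) across all features, with TMM scaling of libraries, where the outer 30% of log ratios and 5% of mean levels on either side are dropped. Features needed the CPM of 10 tags in a library of median depth in 4 libraries, and 15 tags in all. The test was checked on simulated counts drawn independently for each library. That check cannot speak for libraries that share a brain or a letter. In the fit with the 2 genes, 500 kb windows that overlap them on their strand were left out. Single values per library were compared by two-sided exact permutation. The members were chosen with earlier results of these data known. Sites named are the 6 tallest clusters and the 3 fullest 10 kb windows of each gene, and any that passed between brains (0 did). Clusters named as close pairs were chosen after their values were seen. Alternatives were other scalings, no filter, positions counted once per library, blocks, summed libraries, each library left out, and other cluster heights or overlaps.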

Additional observations from a re-analysis of the deposited data

Results flagged for a closer look

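Each brain's 4 libraries were compared for 56 sets of values, and in 2 sets one library stood far from its fellows. About 1 set in 20 does so by chance. Library 4 of brain 1 held 447 CPM of Cacna2d1, below the 504 to 508 CPM of the other libraries of that brain. Library 4 of brain 2 held 17.5 CPM of the Cacna1c cluster at chr6:118943404-118943481, above the 11.2 to 12.2 CPM of the others, a difference that rests on 4 tags in a shallow library.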

How the results depend on the processing

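The change of each gene between brains was below 0 in all 15 alternatives, from -0.35 to -0.22 for Cacna1c and from -0.48 to -0.35 for Cacna2d1. It passed the threshold in 1 of them, Cacna2d1 without library 4 of brain 2 (-0.42, limma adjusted p = 0.0489). None of the 15 used the scaling factors of the 10 kb fit. For libraries 1 and 2 those factors were 1.11 and 1.11 in brain 1 and 0.868 and 0.854 in brain 2. The factors of the 500 kb fit were 0.963 and 0.961, and 1.04 and 1.05, on the other side of 1. With total tags the median 10 kb window changed by -0.21, near the -0.23 of Cacna1c. The genes were not fitted with the 10 kb factors, so the direction holds only for the scalings tried. Leaving out each library gave limma adjusted p-values from 0.0868 to 0.705 for Cacna1c and from 0.0489 to 0.442 for Cacna2d1, with changes from -0.35 to -0.22 and from -0.48 to -0.38. With the replicate number as a block the changes were -0.29 and -0.42 (limma adjusted p = 0.624 and 0.412). Same-numbered libraries did not deviate together (correlations -0.08 to -0.01), and none correlated best with its own number.

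Counts over the genome depended on the setting. For 500 kb windows the 54 calls became 111 with positions counted once per library, 0 with the replicate block, 0 with libraries of a letter summed, and 0 to 245 with a library left out. For 10 kb windows the 45 calls became 8 with total tags, 10 without the filter, 14 with positions counted once, 5 with summed libraries and 17 to 44 with a library left out. For clusters the 6 calls became 15, 3 and 0 with total tags, positions counted once and summed libraries, and 1 to 9 with a library left out. Members' windows and clusters gave 0 calls wherever they could be tested.

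The number of clusters depended on the height asked for. At heights of 5 and 20 Cacna1c had 81 and 6 clusters and Cacna2d1 46 and 3, and with positions counted once 16 and 5. The share of tags in clusters was then 32.8, 7.13 and 12.2% in Cacna1c and 31.5, 8.65 and 8.93% in Cacna2d1, so at a height of 20 the order of the genes reversed. Leaving out a library gave 18 to 27 clusters and 14.4 to 18.6% in Cacna1c, with 18 clusters without library 1 of brain 1 and 19 without library 2 of brain 1, and 6 to 8 clusters and 11.6 to 14.1% in Cacna2d1. Tag density ran from 1.34 to 1.41 and from 0.967 to 1.01 CPM per kb. The cause of these shifts was not tested.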
